A study of Homo sapiens with 6 samples.

Results

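Gene expression of TE-10 cells carrying METTL3 hairpin 1 was set against that of TE-10 cells with normal METTL3, gene by gene. The comparison used 2 of the 6 samples of the series: 1 RNA-seq library of the control and 1 of the hairpin 1 cells. A gene was kept where its deposited expression value was at least 1 in either library, which left 11856 of the 18249 genes in the table. Each difference is hairpin 1 minus control on the log2(value + 1) scale, so that 2-fold and 1.5-fold below refer to this scale. With 1 library a side there is no replicate, so differences are given as sizes and ranks, without a p-value, and the labels do not say whether the libraries came from separate cultures.

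TE-10 is a human oesophageal epithelial cell line, derived from a squamous cell carcinoma. The control cells had the normal genotype, and the hairpin 1 cells had been given a short hairpin RNA for stable knockdown of METTL3. Both were grown in DMEM with serum, and the stranded libraries came from polyadenylated RNA. A library of a METTL3 hairpin 2, whose values are printed beside some genes and which shares the control, and an m6A immunoprecipitation from cells with normal METTL3 belong to the same series. The labels do not say whether the knockdown cells are a pool or a clone, whether the control carried a hairpin, or how long after transfection RNA was taken.

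METTL3 is the catalytic subunit of the nuclear complex that methylates adenosine at position N6 in mRNA (m6A) as it is transcribed. The mark is read by proteins of the YTH family and others, which alter splicing, translation and, above all, mRNA decay. METTL3 works as a heterodimer with METTL14, and WTAP, VIRMA, ZC3H13 and RBM15 bring the pair to its targets.

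METTL3 itself, the gene that checks the label, had a value of 20.81 in the control and 8.35 with hairpin 1. Hairpin 1 therefore left 40.1% of the control value, a difference of -1.22. The hairpin 2 library, at 4.99, kept 24.0%. That library stands apart in CDKN2A, which encodes the inhibitor p16 and is named here for its hairpin 2 value: it was listed at 0.04 in the control, at 0 with hairpin 1 and at 144.68 with hairpin 2. METTL3 was nonetheless not at the extreme of the comparison: it ranked 22 among the genes that were lower with hairpin 1, and 14 among those with a mean of at least 5 over both libraries.

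The hairpin 1 and control libraries were close over most genes. The median difference was -0.02, and the SD of the difference over genes was 0.282, with 5602 genes above zero, 6215 below and 39 without a difference. The middle of the distribution ran from -0.18 at percentile 25 to 0.14 at percentile 75, and percentiles 1 and 99 were -0.77 and 0.69. A total of 80 genes differed by at least 2-fold (0.675% of the 11856), 30 of them higher (0.253%) and 50 lower (0.422%). At 1.5-fold there were 527 genes (4.45%), 220 higher (1.86%) and 307 lower (2.59%). The column sums were 608291 in the control and 617840 with hairpin 1, and sequencing depth is unknown because the table holds no counts. Spread depended on level: the SD was 0.312 among genes with a mean under 2 and 0.225 among those of 100 or more, where 6.27% and 2.30% of genes differed by at least 1.5-fold. Of the genes past 2-fold, 15 of the 30 higher and 33 of the 50 lower had a mean of at least 5. At the edge of the filter, the largest absolute difference was 0.51 among the 31 genes whose higher value was 1 to 1.02, and 0.99 among the 36 genes left out at 0.97 to 0.99.

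**Figure D1:**
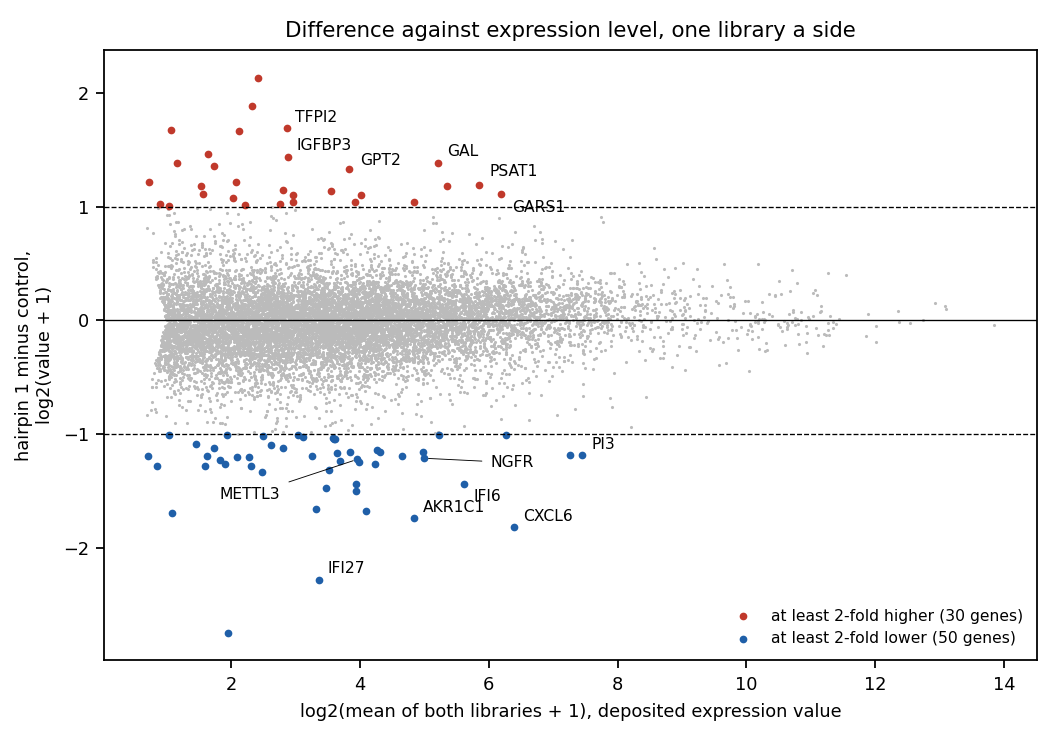
Each point is 1 gene of the 11856 kept. The horizontal axis is log2 of the mean deposited expression value of the control and hairpin 1 libraries plus 1, and the vertical axis is the hairpin 1 minus control difference on the log2(value + 1) scale; dashed lines mark 2-fold. The 30 genes in red and 50 in blue lie past 2-fold, METTL3 among the latter at -1.22, and the cloud narrows toward higher levels.

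The labelled cell type was checked against marker genes. All 8 markers of squamous epithelial cells passed the filter, with 2 above zero, 6 below and a median of -0.05. Their summed values were 2540.88 in the control and 2573.77 with hairpin 1, and KRT5, at 633.07 and 779.09, was the member that was higher by most. KRT14 stood at 449.63 and 357.39, and TP63, the master regulator of the squamous lineage, at 31.89 and 23.54. None of the 6 endothelial markers passed, their summed value being 1.41 and 0.52. Of the 8 fibroblast markers only COL1A1 passed, at 3.34 and 3.6, with DCN and THY1 at 0 in both libraries. CD68, at 18.81 and 7.88, was the only one of 8 blood markers to pass, while PTPRC, the leukocyte common antigen, had 0.17 and 0.25 and HBB was at 0. CD68 encodes a lysosomal protein that is not limited to macrophages. The simple keratins KRT8 and KRT18 were expressed at 450.52 and 281.8 in the control and at 449.63 and 283.79 with hairpin 1, while KRT20 and MUC2 were at 0 in both. In bulk RNA, fewer cells of a type and less RNA per cell cannot be told apart.

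Genes of the cell's response to amino acid shortage stood mostly on the higher side. ATF4 is a transcription factor whose mRNA is translated more when the kinases of the integrated stress response phosphorylate eIF2. It switches on enzymes that make amino acids, transporters that import them and the tRNA synthetases that charge them. Of 34 genes listed for the ATF4 amino acid response, 33 passed the filter, 30 of them above zero and 3 below. A difference of at least 1.5-fold higher was reached by 11, or 33.3%, against 1.86% of all genes. None was 1.5-fold lower, against 2.59% of all genes. The list median was 0.47, against -0.02 over all genes. Together with serine and glycine synthesis, amino acid transport and cytosolic tRNA charging, the 4 lists held 77 genes, of which 7 stood in more than 1 list and 71 passed. Of the 71, 60 were above zero, and the median was 0.38. At least 1.5-fold higher were 22 (31.0%) and none was 1.5-fold lower, against 1.86% and 2.59% of all genes.

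GPT2, the mitochondrial alanine transaminase, led the ATF4 list with 7.1 in the control and 19.36 with hairpin 1, a difference of 1.33. PSAT1, which makes phosphoserine from 3-phosphohydroxypyruvate, had 34.04 and 78.89, a difference of 1.19. ASNS, the asparagine synthetase and a classical ATF4 target, had 24.01 and 55.81, a difference of 1.18. These enzymes thus stood at more than double their control value, and all were also above control with hairpin 2, at 10.19, 64.05 and 63.88. CHAC1, which degrades glutathione, had 4.35 and 9.5, a difference of 0.97. ATF4 mRNA itself, at 397.79 and 546.9, differed by 0.46, less than several of its targets. TRIB3, the pseudokinase that restrains the response, had 23.49 and 45.07. NUPR1, a small stress-induced nuclear protein, had 23.93 and 44.05, and the AP-1 repressor JDP2 had 61.49 and 106.33. With hairpin 2 TRIB3, at 26.34, and JDP2, at 65.3, were near control, while CHAC1, at 13.62, and NUPR1, at 30.94, lay above it. Not every gene tied to ATF4 or to its partners was high. DDIT3, which encodes CHOP, differed by 0.20 from a control value of 30.58. The members below zero were VLDLR, DDIT4 and SESN2, the last at 6.26 and 4.63, a difference of -0.37. The CBS value of the list is uncertain, since its near-identical copy CBSL is counted apart; the sum of both was 10.27 and 19.44, a difference of 0.86.

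The serine, glycine and folate-linked carbon list had 11 members that passed, 9 above zero and 2 below, with a median of 0.30. Of the 11, 2 were at least 1.5-fold higher, against 1.86% of all genes. PHGDH, the entry enzyme of serine synthesis, had 91.9 in the control and 135.48 with hairpin 1, a difference of 0.55. MTHFD2, the mitochondrial folate enzyme, had 86.48 and 139.1, a difference of 0.68. SHMT2 and cytosolic SHMT1, which exchange serine and glycine, differed by 0.29 and 0.36. PSPH, the last step to serine, had 27.13 and 33.59, so the whole route from phosphoglycerate lay above control. SFXN1, the mitochondrial serine carrier, was below zero, at 46.88 and 43.98.

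Of 18 amino acid transporters, 14 passed, 11 above zero, with a median of 0.24. Of the 14, 4 were at least 1.5-fold higher and none 1.5-fold lower, against 1.86% and 2.59% of all genes. SLC1A4, a carrier of alanine, serine and cysteine, had 4.1 in the control and 9.51 with hairpin 1, a difference of 1.04. SLC7A5, the light chain of the large neutral amino acid exchanger, had 154.26 and 282.61, a difference of 0.87. SLC3A2, its heavy chain, had 80.71 and 139.37, a difference of 0.78. Both chains of this exchanger were therefore high in the same library, as was the glycine carrier SLC6A9, at 3.38 and 7.2. The glutamine carrier SLC1A5, at 63.55 and 84.35, was nearer to control. SLC38A2, another neutral amino acid carrier, was lower, at 36.08 and 25.73, a difference of -0.47. With hairpin 2 SLC1A4 stood at 4.17, SLC7A5 at 168.58 and SLC3A2 at 90.4, close to the control, while SLC6A9 at 8.01 and SLC1A5 at 102.46 lay above it.

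All 20 cytosolic aminoacyl-tRNA synthetases, the enzymes that attach each amino acid to its tRNA, passed. Of these, 17 were above zero, and the median was 0.34. At least 1.5-fold higher were 7 (35%) and none was 1.5-fold lower, against 1.86% and 2.59% of all genes. GARS1, which charges glycine, had 45.33 in the control and 99.12 with hairpin 1, a difference of 1.11. MARS1, which charges methionine, had 49.08 and 92.3, a difference of 0.90. YARS1, for tyrosine, had 56.5 and 89.41, and SARS1, for serine, had 60.78 and 95.5. The enzymes for tryptophan (WARS1), cysteine (CARS1) and isoleucine (IARS1) completed the group past 1.5-fold, WARS1 at 110.46 and 171.58. The rest ran down in steps, from AARS1, TARS1 and NARS1, at differences of 0.46, 0.43 and 0.40, through HARS1, LARS1 and EPRS1, at 0.27, 0.24 and 0.16, to values near zero. FARSA and FARSB, the subunits of the phenylalanine enzyme, differed by 0.04 and 0.05, and VARS1 and KARS1 by -0.04 and -0.04. QARS1, for glutamine, was the lowest, at 62.38 and 45.7, a difference of -0.44. With hairpin 2 WARS1, at 110.16, and TARS1, at 75.44, were near control, while GARS1, at 69.76, YARS1, at 123.48, and QARS1, at 101.9, lay above it.

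**Figure D2:**
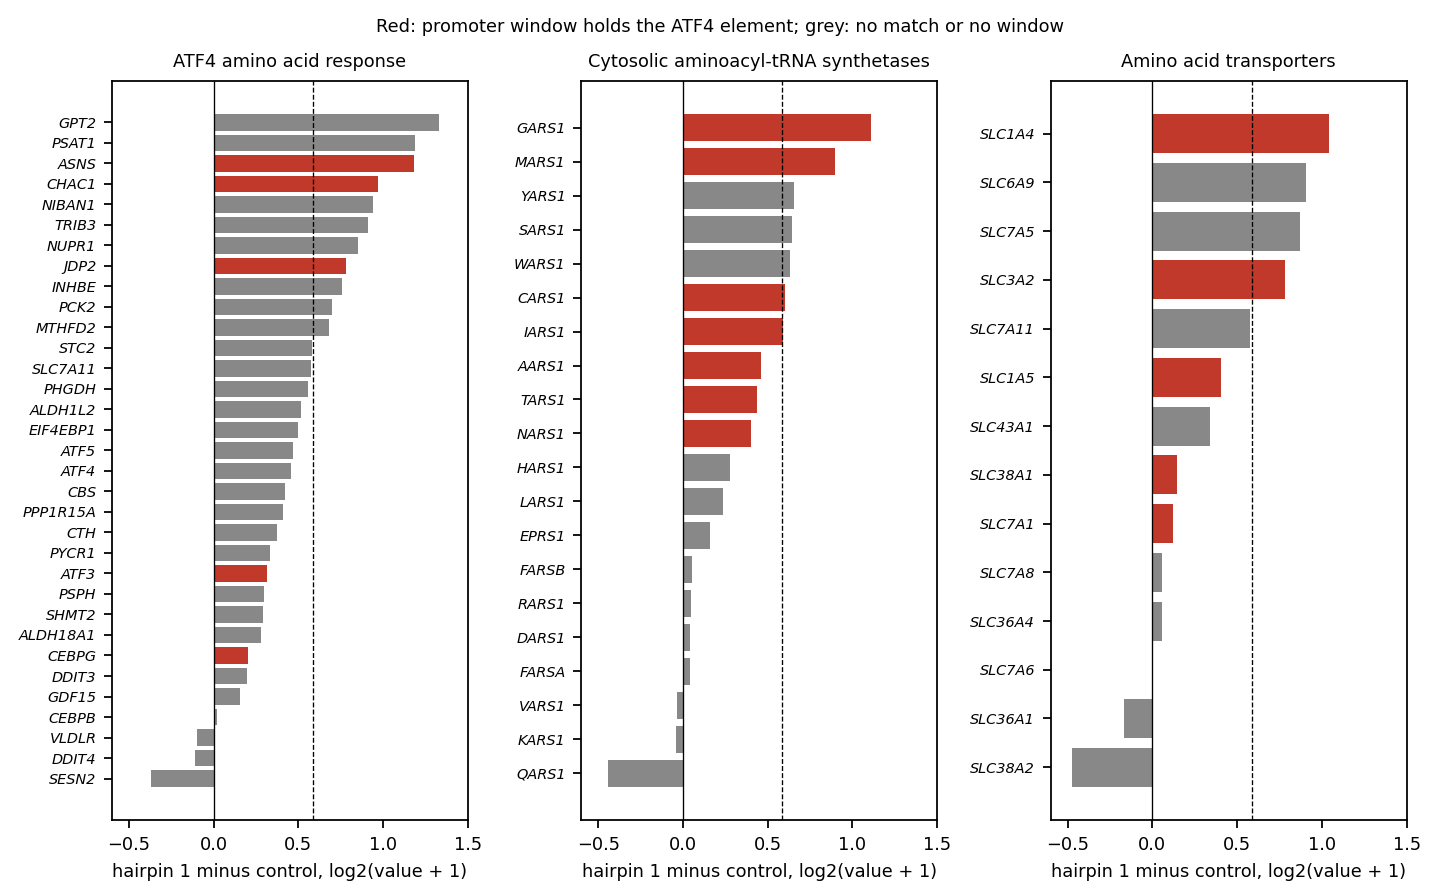
Bars give the hairpin 1 minus control difference on the log2(value + 1) scale for each member that passed the filter in the lists of the ATF4 response (33), cytosolic aminoacyl-tRNA synthetases (20) and amino acid transporters (14). The dashed line marks 1.5-fold, and red bars are genes whose RefSeq promoter window holds the ATF4 element. Other bars are genes without a match or, like GPT2, without a window to search. To the right of zero lie 30, 17 and 11 members.

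ATF4 binds DNA with C/EBP partners at a composite element, and the promoters of these genes were read for it. The letters TGATGNAA and their reverse complement TTNCATCA were searched in windows of 300 bases, 250 before to 50 after each annotated start, in the RefSeq annotation of GRCh38.p14. The following windows belong to 5 members among the highest of their lists and show where the element lies; the match is in capitals, and each line runs 5′ to 3′ along the gene's strand.
ASNS: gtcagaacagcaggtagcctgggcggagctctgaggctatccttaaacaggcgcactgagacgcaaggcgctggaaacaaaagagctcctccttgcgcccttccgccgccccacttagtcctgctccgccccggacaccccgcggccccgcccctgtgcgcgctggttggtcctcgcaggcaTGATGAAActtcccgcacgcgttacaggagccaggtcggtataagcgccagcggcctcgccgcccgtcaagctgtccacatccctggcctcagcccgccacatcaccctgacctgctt
CHAC1: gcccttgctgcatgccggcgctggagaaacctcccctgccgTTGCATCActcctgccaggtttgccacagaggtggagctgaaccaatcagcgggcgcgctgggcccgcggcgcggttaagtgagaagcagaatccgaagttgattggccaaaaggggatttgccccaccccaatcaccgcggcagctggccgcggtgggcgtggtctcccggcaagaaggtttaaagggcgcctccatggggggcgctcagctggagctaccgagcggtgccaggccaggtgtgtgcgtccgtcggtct
GARS1: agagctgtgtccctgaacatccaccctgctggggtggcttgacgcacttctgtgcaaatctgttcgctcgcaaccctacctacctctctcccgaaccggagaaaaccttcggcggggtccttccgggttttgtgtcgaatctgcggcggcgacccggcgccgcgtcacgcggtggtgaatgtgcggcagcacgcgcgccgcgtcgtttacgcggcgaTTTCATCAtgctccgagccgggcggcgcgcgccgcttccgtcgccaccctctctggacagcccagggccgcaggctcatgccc
MARS1: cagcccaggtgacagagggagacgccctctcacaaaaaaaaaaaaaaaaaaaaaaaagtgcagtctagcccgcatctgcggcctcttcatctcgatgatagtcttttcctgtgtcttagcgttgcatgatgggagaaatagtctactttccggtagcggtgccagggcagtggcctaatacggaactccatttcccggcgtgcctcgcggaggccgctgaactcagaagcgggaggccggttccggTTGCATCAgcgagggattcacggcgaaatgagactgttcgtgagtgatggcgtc
SLC1A4: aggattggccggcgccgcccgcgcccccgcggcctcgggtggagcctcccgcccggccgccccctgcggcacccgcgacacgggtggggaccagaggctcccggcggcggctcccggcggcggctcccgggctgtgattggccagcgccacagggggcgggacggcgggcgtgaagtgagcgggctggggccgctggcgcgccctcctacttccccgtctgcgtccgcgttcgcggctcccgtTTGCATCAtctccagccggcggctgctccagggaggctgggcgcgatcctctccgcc
The ASNS window lies on the minus strand at chr7:97872359-97872658, and its match begins 68 bases before the start. CHAC1 lies on the plus strand at chr15:40953221-40953520, with the match 209 bases before the start. The GARS1 window, chr7:30594628-30594927 on the plus strand, has it 33 bases before. In MARS1 (chr12:57487818-57488117, plus strand) and SLC1A4 (chr2:64989149-64989448, plus strand) the match begins 4 and 7 bases before the start. All 5 windows carry 1 match each, and no capital base belongs to a match of the other motifs searched.

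The element stood in 4.46% of the 27305 genes with a window and in 2.61% of the 9575 of them that passed the filter. Among genes at least 1.5-fold higher with hairpin 1 it was present in 16 of 158, or 10.1%. Among those at least 1.5-fold lower it was present in 7 of 228, or 3.07%. At 2-fold the counts were 4 of 22 higher genes and 0 of 37 lower genes. Over all genes that passed, those with the element and those without it had the same median, -0.01. This motif and the others searched were chosen after these values were seen. The 1.5-fold higher genes with the element include members of the lists above, such as ASNS, GARS1 and MARS1. The shares here and the medians by list below are therefore descriptions, and binding of ATF4 was not tested.

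Among the tRNA synthetases the element was found in 7 of 16 with a window: AARS1, CARS1, GARS1, IARS1, MARS1, NARS1 and TARS1. Their median difference was 0.59, against 0.05 for the 9 without a match. All 7 were above zero, and 4 were at least 1.5-fold higher, against 2 of those without it. The transporters gave 5 of 13 with a match, with medians of 0.40 and 0.06. In the ATF4 list it was 5 of 24 with a window, with medians of 0.78 and 0.42. PSAT1, at a difference of 1.19, has no match in its window, and GPT2 had no window to search. The other genes at least 1.5-fold higher with the element were MANEAL, WSCD1, FBLL1, CCK, AJUBA, RBP4 and SULT1E1, of which only MANEAL and AJUBA had a mean of at least 5. AJUBA, a LIM protein of the cell junction, had 37.32 in the control and 63.92 with hairpin 1.

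Other stress programmes did not follow the amino acid genes. The endoplasmic reticulum chaperones, which the ATF6 and IRE1 arms of the unfolded protein response control, had 6 members above zero and 17 below among 23. Their median was -0.18, and none was past 1.5-fold in either direction, against 4.45% of all genes. HSP90B1, the reticulum's HSP90, had 223.74 in the control and 165.85 with hairpin 1, a difference of -0.43. HSPA5, which encodes BiP, had 77.33 and 68.68, and XBP1 had 85.92 and 100.41. Cytosolic and mitochondrial heat shock chaperones had a median of -0.05, and CRYAB alone of 20 was past 1.5-fold, against 4.45% of all genes. Targets of p53 had a median of -0.06. Of 25, none was at least 1.5-fold higher and 2 were lower, against 1.86% and 2.59% of all genes. The 2 were BTG2 at 10.88 and 6.6 and ZMAT3 at 4.93 and 2.93.

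Metallothioneins, small proteins that bind zinc and copper, were another higher group. With the zinc exporter SLC30A1, 5 of 9 listed genes passed, all above zero, and the median was 0.49. Of the 5, 2 were at least 1.5-fold higher, against 1.86% of all genes. MT1E had 147.83 in the control and 279.23 with hairpin 1, a difference of 0.91. MT2A, the list's highest member, had 966.27 and 1360.43, a difference of 0.49. MT1X was level, at 188.93 and 191.24. With hairpin 2 MT1E and MT2A were below control, at 85.29 and 472.22. Members of this family are close in sequence, so reads may be shared among them.

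YAP and TEAD targets, read-outs of the Hippo pathway, included genes on the higher side as well. Of 18 that passed, 11 were above zero, and the median was 0.14. At least 1.5-fold higher were 4 (22.2%), against 1.86% of all genes. ANKRD1, a nuclear ankyrin repeat protein, had 3.35 in the control and 8.63 with hairpin 1, a difference of 1.15. IGFBP3, which binds insulin-like growth factors outside the cell, had 2.98 and 9.78, a difference of 1.44. CCN1, a matricellular protein, had 21.25 and 33.67, a difference of 0.64, and CCN2 had 6.14 and 7.85. With hairpin 2 ANKRD1 stood at 3.04 and CCN1 at 13.47, at or below control, and IGFBP3 stood at 6, above it.

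The rest of the 15 highest genes with a mean of at least 5 came from varied functions. TFPI2, a protease inhibitor of the extracellular matrix, had 2.44 in the control and 10.1 with hairpin 1, the largest difference of these genes at 1.69. GAL, the precursor of the neuropeptide galanin, had 19.59 and 52.85, a difference of 1.39. ALDH1A1, which makes retinoic acid, had 9.31 and 21.18, a difference of 1.11. All these differ from the amino acid genes in their known roles. CRYAB, a small heat shock protein, had 17.71 and 37.61, a difference of 1.05. CDH13, a cadherin anchored by lipid, had 3.97 and 9.67, and PNLDC1, a trimmer of piRNA ends, had 6.35 and 15.19. GLRX2, a glutaredoxin, had 8.93 and 19.4, and CFI, the complement factor I protease, had 3.46 and 8.05. The hairpin 2 library divided these genes: GAL at 34.34, GLRX2 at 13.14 and CFI at 5.09 lay above control. In contrast TFPI2 at 0.8, ALDH1A1 at 6.43, CDH13 at 1.69, PNLDC1 at 2.29 and CRYAB at 13.53 lay below it.

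**Figure D3:**
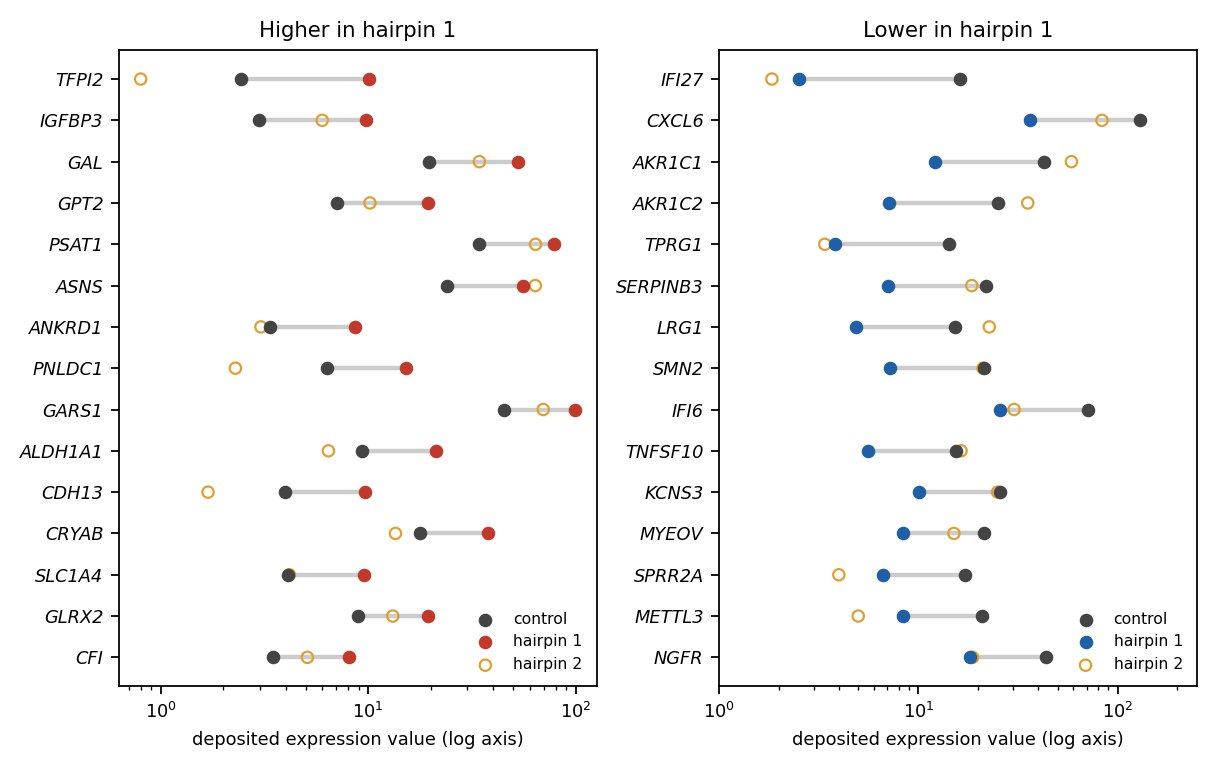
Deposited expression values, on log axes, of the 15 genes with the largest positive and the 15 with the largest negative difference among genes with a mean of at least 5. Filled points are the control and hairpin 1 libraries, 1 library each, and open points are hairpin 2, which did not choose the genes; TFPI2 runs from 2.44 to 10.1 and IFI27 from 16.1 to 2.51.

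On the lower side, the gene with the largest difference at a mean of at least 5 was interferon-stimulated. IFI27 had 16.1 in the control and 2.51 with hairpin 1, a difference of -2.28. IFI6, a mitochondrial protein of the same family, had 70.91 and 25.6, a difference of -1.43. In both cases the hairpin 2 library was also low, at 1.84 and 30.26. IRF9, the DNA-binding subunit of the ISGF3 complex that type I interferon activates, had 26.67 and 16.05, a difference of -0.70. IFITM1, a membrane protein that blocks viral entry, had 428.66 and 267.57, and the ubiquitin-like modifier ISG15 had 58.49 and 37.44. These genes were the 5 at least 1.5-fold lower of 35 that passed (14.3%, against 2.59% of all genes). None was 1.5-fold higher, against 1.86% of all genes. The list as a whole was divided, with 13 members above zero, 22 below and a median of -0.11. IFIT3 and OASL were above control, at 3.56 and 4.62 and at 5.25 and 7.67.

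Interferon-stimulated promoters carry a response element bound by ISGF3 and IRF proteins, and the windows of the members with the largest differences show it. The element, a pair of GAAA runs separated by any 2 bases, was searched on both strands as above, and matches are in capitals.
IFI27: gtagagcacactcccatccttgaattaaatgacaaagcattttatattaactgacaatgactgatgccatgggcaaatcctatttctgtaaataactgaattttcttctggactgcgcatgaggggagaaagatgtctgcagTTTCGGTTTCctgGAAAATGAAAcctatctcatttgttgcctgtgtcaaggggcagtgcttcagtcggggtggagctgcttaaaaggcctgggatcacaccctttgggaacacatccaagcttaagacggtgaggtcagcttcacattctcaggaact
IFI6: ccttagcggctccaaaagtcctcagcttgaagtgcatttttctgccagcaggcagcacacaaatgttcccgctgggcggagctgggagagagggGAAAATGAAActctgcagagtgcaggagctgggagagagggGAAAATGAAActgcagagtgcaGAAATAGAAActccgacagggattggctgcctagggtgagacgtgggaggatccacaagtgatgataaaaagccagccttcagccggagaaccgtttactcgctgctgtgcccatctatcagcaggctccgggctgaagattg
The IFI27 window (chr14:94110486-94110785, plus strand) holds 2 matches, the first 108 bases before the start. The IFI6 window (chr1:27672143-27672442, minus strand) holds 3, the first 156 bases before. The element stood in 3.72% of genes that passed, in 14 of 228 genes at least 1.5-fold lower (6.14%) and in 8 of 158 higher (5.06%). Of 29 interferon-stimulated genes with a window, 20 carried it, and their median was -0.12, against 0.04 for the rest.

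HLA class I genes and their helpers had 5 members above zero and 10 below and a median of -0.17. Past 1.5-fold was 1 member, against 4.45% of all genes. That member was HLA-E, which presents leader peptides to natural killer cells, at 105.07 and 62.25, a difference of -0.75. B2M, the shared light chain, was slightly lower, at 849.83 and 746.42. HLA genes are close copies of one another, so reads may be split among them. Chemokines and other targets of NF-kB were mixed, with a median of -0.12. CXCL6, which attracts neutrophils, had 130.38 in the control and 36.22 with hairpin 1, a difference of -1.82. CXCL8, of the same chemokine cluster and role, had 81.52 and 47.92, a difference of -0.75. CXCL1, also of that cluster, had 646.86 and 536.9, a difference of only -0.27, and CXCL2 and CXCL3 differed by 0.27 and 0.01. NFKBIA, the inhibitor that NF-kB induces, had 129.89 and 118.59.

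Genes of the cornified envelope, the cross-linked protein shell of a mature squamous cell, were lower in several families. Of 33 differentiation genes that passed, 10 were at least 1.5-fold lower (30.3%, against 2.59% of all genes), 1 was higher by that fold (against 1.86%), 24 were below zero and the median was -0.20. PI3, the elastase inhibitor elafin that is linked into the envelope, had 242.85 in the control and 106.17 with hairpin 1, a difference of -1.19. The SPRR2 genes, small proline-rich precursors of the envelope, summed to 76.41 and 35.2, a difference of -1.10. They are given as a sum since they are near copies, while the shares above count each listed copy apart. SPRR1A had 48.91 and 23.8, a difference of -1.01. The low values extended to LCN2, a siderophore-binding protein of stressed epithelium, at 101.86 and 50.16, and to S100A9, a calcium-binding alarmin, at 92.92 and 61.42. They did not extend to all keratins and cystatins of the list. KRT6A, its highest member, had 887.74 and 798.22, KRT16 had 15.61 and 15.65, and CSTA had 102.02 and 90.83. Other envelope genes such as IVL and LOR were near or at 0 in both libraries and are not among the 33. With hairpin 2 PI3 stood at 108.78, SPRR1A at 14.3, LCN2 at 67.41 and S100A9 at 41.13.

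Serpins and kallikreins, inhibitors and proteases of squamous tissue, had a median of -0.25. Of 12 members, 5 were at least 1.5-fold lower and 1 higher, against 2.59% and 1.86% of all genes. The 5 count SERPINB3 and SERPINB4 apart. Of the kallikreins only KLK10 passed, at 7.61 in the control and 8.89 with hairpin 1, so the counts past 1.5-fold are of serpins. SERPINB3, the squamous cell carcinoma antigen, had 21.79 in the control and 7.06 with hairpin 1, and summed with its near-identical neighbour SERPINB4 it had 25.07 and 7.93, a difference of -1.55. SERPINB5 (maspin) stood at 37.67 and 40.55, apart from them.

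Genes of the basal squamous layer, many of which tie the cell to its basement membrane, had the lowest median of the lists with at least 5 members, -0.33. Of the 21 that passed, 16 were below zero. At least 1.5-fold lower were 3, against 2.59% of all genes. NGFR, the p75 neurotrophin receptor that marks basal cells, had 43.61 in the control and 18.25 with hairpin 1, a difference of -1.21. ITGB1, the beta chain shared by many integrins, had 301.05 and 176.87, a difference of -0.76. BNC1, a zinc finger protein of basal keratinocytes, had 11.47 and 7.26. Parts of the hemidesmosome and its laminin were lower by less: COL17A1 at -0.47, ITGA6 at -0.47 and LAMB3 at -0.40. ITGB4, the partner of ITGA6, was not, at 116.24 and 130.93, nor was KRT17, at 1171.05 and 1177.9. Junction genes had a median nearer to zero, -0.04, and none of 25 was past 1.5-fold, against 4.45% of all genes. Squamous transcription factors had a median of -0.08; TP63 differed by -0.42 and SOX2 by -0.19, while OVOL2, a repressor of mesenchymal genes, stood at 6.92 and 12.1.

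Fatty acid genes had no member above zero: all 16 that passed were below, with a median of -0.29. Of the 16, 2 were at least 1.5-fold lower (12.5%, against 2.59% of all genes). SCD, the desaturase that makes oleate, had 209.73 in the control and 141.56 with hairpin 1, a difference of -0.56. FADS2, the first desaturase of polyunsaturated fatty acids, had 29.38 and 18.68, a difference of -0.63. ACSL4, which activates arachidonate, had 22.8 and 14.18, a difference of -0.65. Most members were small shifts, such as ACLY at -0.24 and ACACA at -0.26. Cholesterol synthesis and uptake, the other programme of the SREBP factors, had 21 of 25 below zero and a median of -0.24. Of the 25, 2 were at least 1.5-fold lower, against 2.59% of all genes. Of the pathway's enzymes, MVD differed by -0.59, FDFT1 by -0.57 and HMGCS1 by -0.43. Others did not share this: SQLE differed by -0.07, FDPS by 0.13 and NSDHL by 0.27. With hairpin 2 FDFT1, at 91.92, was near control, and SCD, at 156.02, was between. The sterol element TCACNCCAC was in the window of 1 of 18 cholesterol genes and 1 of 15 fatty acid genes, against 1.47% of genes that passed.

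NRF2 targets, which detoxify and supply reducing power, had 24 of 29 below zero and a median of -0.17. Of the 29, 4 were at least 1.5-fold lower (13.8%, against 2.59% of all genes) and none 1.5-fold higher (against 1.86%). AKR1C1 and AKR1C2, steroid and aldehyde reductases that lie side by side on chromosome 10, carried the largest differences. AKR1C1 had 42.89 in the control and 12.12 with hairpin 1, a difference of -1.74. AKR1C2 had 25 and 7.15, a difference of -1.67, and since they are close copies their reads may be shared; the AKR1C genes summed to 68.72 and 19.49. With hairpin 2 that sum was 94.93, above the control. GPX2, the epithelial glutathione peroxidase, had 203.05 and 118.14, a difference of -0.78, and 468.93 with hairpin 2. OSGIN1, an oxidative stress-induced growth inhibitor, had 7.49 and 3.55. NQO1, a standard NRF2 target, was nearer to control at 107.12 and 96.69, and TXN and FTH1 were slightly above it, at differences of 0.09 and 0.10. The antioxidant element TGACNNNGC, with its reverse complement GCNNNGTCA, was in 7 of 19 windows of the list, against 19.6% of genes that passed. Members with and without it had medians of -0.27 and -0.23.

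The remaining lowest genes again had varied roles. TPRG1, named for regulation by p63, had 14.22 in the control and 3.83 with hairpin 1, a difference of -1.66. LRG1, a secreted leucine-rich glycoprotein, had 15.34 and 4.87, a difference of -1.48. TNFSF10, the death ligand TRAIL, had 15.45 and 5.62, a difference of -1.31. KCNS3, a modulatory potassium channel subunit, had 25.56 and 10.08, and MYEOV had 21.25 and 8.41. With hairpin 2 TPRG1 was low as well, at 3.39, whereas LRG1, at 22.71, TNFSF10, at 16.39, and KCNS3, at 24.99, were not. SMN2 had 21.32 and 7.24, but its copy SMN1 had 26.54 and 32.39, and their sum, 47.86 and 39.63, differed by only -0.27. The neighbouring copies SERF1A and SERF1B showed the same pattern, with SERF1A at 5.71 and 0 and their sum at 18.38 and 19.7. Differences of these single copies are therefore uncertain.

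Matrix and invasion genes went both ways. MMP14, the membrane-bound collagenase, had 32.66 in the control and 16.34 with hairpin 1, a difference of -0.96. TNC, the matrix protein tenascin C, had 12.25 and 6.32, a difference of -0.86. MMP2, the gelatinase that MMP14 activates, was higher, at 36.08 and 49.29. CD44, the hyaluronan receptor, had 72.66 and 45.82, a difference of -0.65. It was 1 of 2 members at least 1.5-fold lower among 15 that passed of the list of Wnt targets (against 2.59% of all genes). That list also holds Wnt ligands, and the other lower member was the ligand WNT7A. The ligand WNT10A, of the same list, was at least 1.5-fold higher (against 1.86% of all genes), at 25.7 and 40.08. SMAD6, an inhibitor of BMP signalling, had 7.49 and 12.29, and the ID genes that BMP induces were above control, ID2 at 0.54, ID3 at 0.42 and ID1 at 0.27. Of the EGFR family, the ligand BTC was the 1 member past 1.5-fold (against 4.45% of all genes), at 3.16 and 7.29. EGFR itself had 20.87 and 14.32. List medians were 0.08 for the mesenchymal and invasion genes, -0.16 for Wnt targets, -0.02 for TGF-beta and BMP targets and -0.07 for the EGFR family.

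The machinery of growth was nearly level. The 76 cytosolic ribosomal proteins had a median of -0.03 and the 46 nuclear-encoded respiratory chain subunits 0.00. No member of either was past 1.5-fold, against 4.45% of all genes. Proteasome subunits had a median of 0.07 and mitotic genes -0.02, also with none past 1.5-fold, against the same share. In the list of S phase entry and DNA replication, 27 of 35 were above zero with a median of 0.10. CCNE1, the cyclin that drives S phase entry, had 13.74 in the control and 22.37 with hairpin 1, a difference of 0.66. PCNA, the sliding clamp of replication, had 86.14 and 123.63, a difference of 0.52. CDK4 had 146.17 and 197.53, while the inhibitor CDKN2D had 11.73 and 7.82. Glycolysis and hypoxia genes had a median of -0.08, with P4HA1, a collagen prolyl hydroxylase, at 36.07 and 24.92 and GAPDH at 6857.04 and 6867.12. Lysosome and autophagy genes had a median of -0.10, with LAMP2 at 65.67 and 45.56. Immediate early genes had 18 of 25 above zero and a median of 0.12; EGR1 had 22.31 and 30.3 and IER3 had 285.74 and 206.56. Medians were -0.06 for CDK inhibitors and G1 regulators, -0.09 for replication-dependent histones and -0.14 for sterol export genes.

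**Figure D4:**
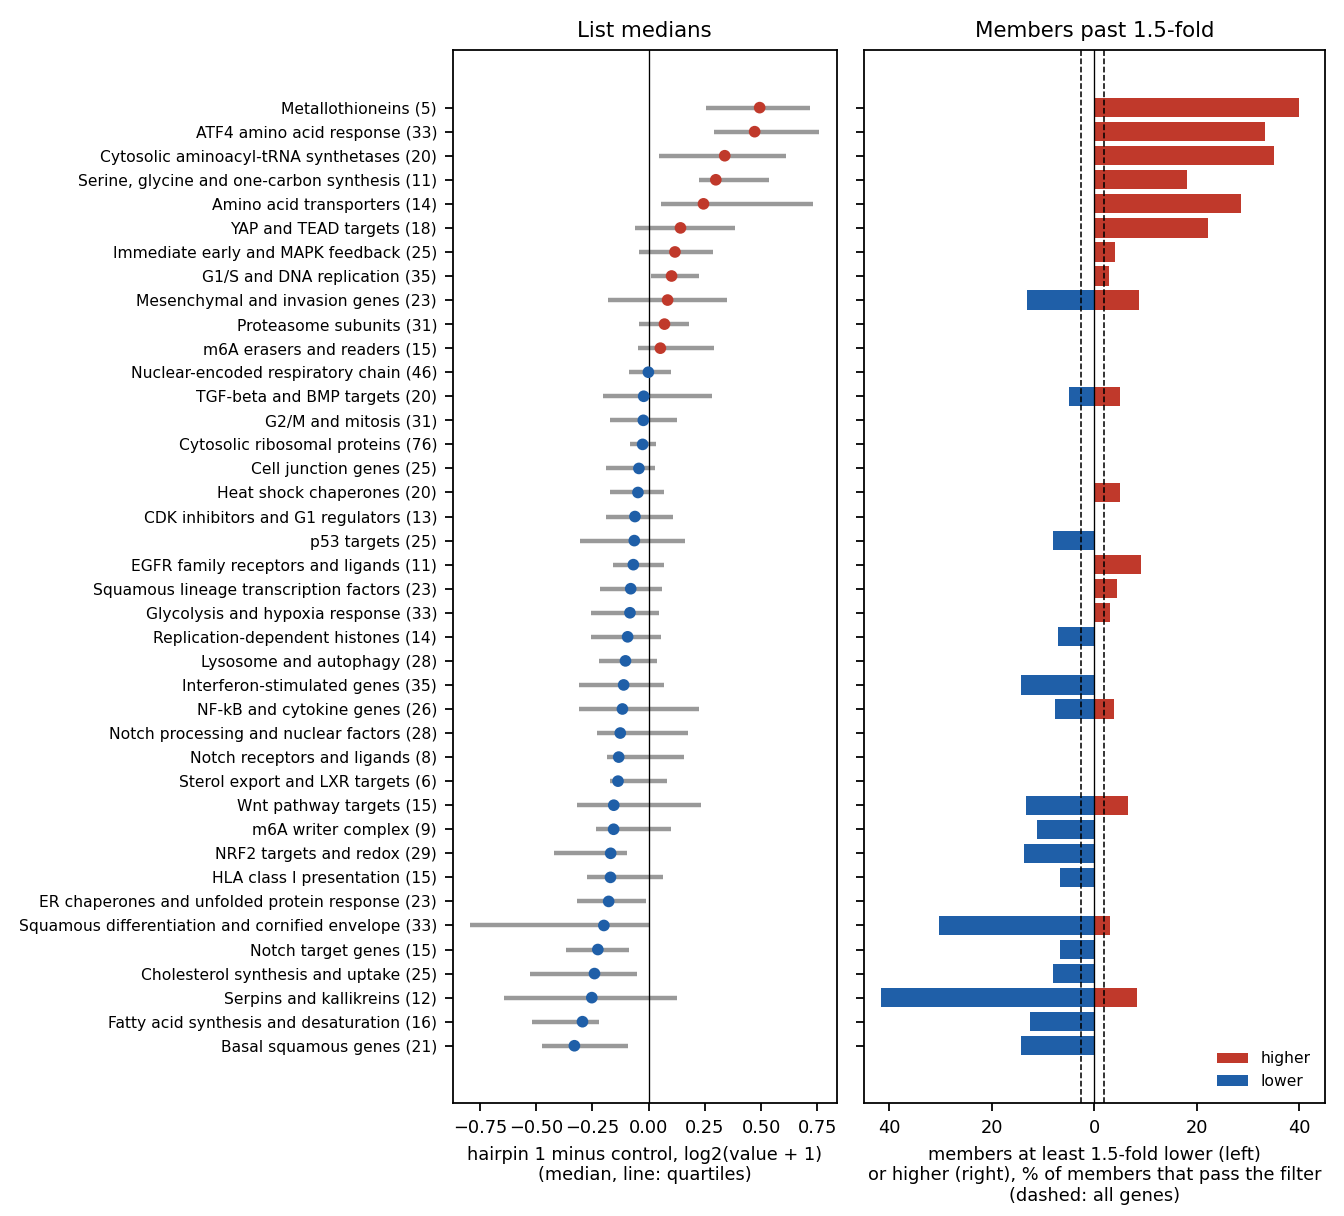
Lists of known genes with at least 5 members that passed the filter (number in parentheses), ordered by median. The left panel gives the median and quartiles of the hairpin 1 minus control difference, log2(value + 1), and the right panel the percent of members at least 1.5-fold lower (left) or higher (right), with dashed lines at the 2.59% and 1.86% of all genes. Medians run from -0.33 for basal genes to 0.49 for metallothioneins.

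Partners and readers of METTL3 differed little beside METTL3 itself. Of the other writer subunits METTL14 had 6.02 in the control and 5.3 with hairpin 1, WTAP 40.76 and 48.82, and VIRMA 4.76 and 3.59. None of the 15 erasers and readers was past 1.5-fold, against 4.45% of all genes, and so short a list cannot be set apart from that share. The demethylase ALKBH5 was the list's largest difference at a value of 5 or more, at 200.69 and 267.78. The writer list had a median of -0.16 with METTL3 included, and the erasers and readers one of 0.05. Notch receptors and ligands had a median of -0.13 with none past 1.5-fold, against 4.45% of all genes. Among them were JAG2 at 28.27 and 22.58 and DLK2, a non-canonical ligand, at 23.92 and 35.89. Factors that process Notch or act with it in the nucleus had the same median, -0.13, also with none past 1.5-fold, against the same share. Notch target genes had 13 of 15 below zero and a median of -0.23. HES1, the principal target, had 48.44 and 40.66, HEY1 had 7.57 and 5.37, and NRARP had 12.17 and 8.16. Hairpin 2 had HES1 at 48.02, HEY1 at 22.73 and NRARP at 21.41.

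The m6A peaks of cells with normal METTL3 gave a readout that the expression comparison had not used. A peak annotated to a coding exon or untranslated region was present in 5564 of the 11856 genes, or 46.9%. Among genes at least 2-fold higher with hairpin 1 it was present in 6 of 30, and among those 2-fold lower in 20 of 50. The median difference was -0.02 for genes with such a peak and -0.01 for genes without one. At least 1.5-fold higher were 1.51% of genes with and 2.16% of genes without a peak, and at least 1.5-fold lower were 2.34% and 2.81%. Expression level differed between these classes, with a median value of 9.15 for genes with a peak and 12.3 for those without, and its part in these shares was not tested. Within bins of mean value the medians with and without a peak were -0.04 and -0.04 at 5 to 20, 0.02 and 0.01 at 20 to 50, and 0.02 and 0.06 at 50 or more. The 79 genes with 5 or more exonic peaks had a median of -0.09, and 2 of them were at least 1.5-fold lower and none higher. Of the members that passed, such a peak was present in 14 of 33 genes of the ATF4 list, 7 of 20 tRNA synthetases, 10 of 14 amino acid transporters, 12 of 35 interferon-stimulated genes and 19 of 33 differentiation genes. The peak list says nothing of methylation with hairpin 1, as no immunoprecipitation of knockdown cells was analysed here.

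**Figure D5:**
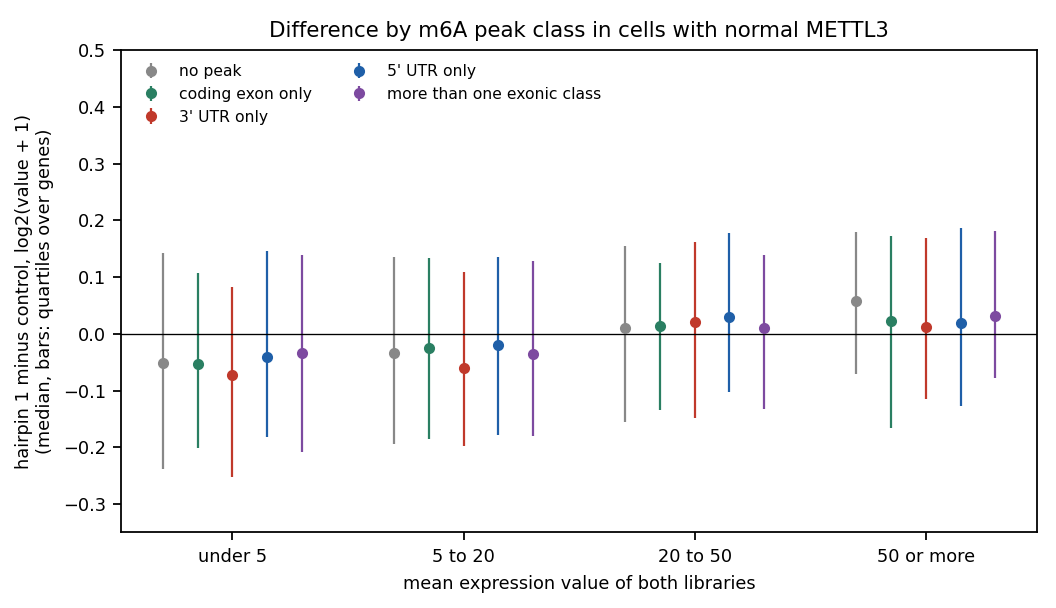
Median (points) and quartiles over genes (bars) of the hairpin 1 minus control difference, log2(value + 1), by where a gene's m6A peaks lie in cells with normal METTL3, within 4 bins of mean expression value. Medians of all classes lie between -0.07 and 0.06.

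By chromosome, medians ran from -0.08 over the 453 genes of chromosome 10 to 0.07 over the 320 of chromosome 20. On chromosome 10, 4.42% of genes were at least 1.5-fold lower and 1.10% higher, against 2.59% and 1.86% of all genes. On chromosome 20 the shares were 1.88% and 3.13%. Several of the 1.5-fold lower genes of chromosome 10 lie near one another, between KIAA1217 (start 23694727) and PARD3 (start 34109561). ABI1, MASTL, SVIL, ARHGAP12, NRP1 and ITGB1, named above with the basal genes, are among them. Others, such as ANKRD22, GRK5 and MXI1, lie elsewhere on that chromosome. Regions within a chromosome were not tested.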

How the data were processed

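RNA-seq expression was measured in 3 libraries (control, hairpin 1, hairpin 2), and m6A immunoprecipitation in 1 input and 2 immunoprecipitated libraries. Per the submitters' processing notes, TopHat2, HTSeq, MACS2 (for the immunoprecipitation) and build hg38 were used, with versions not given in the sources used here. An expression signal per gene, to 2 decimals, makes up the deposited table, whose header states neither unit nor length scaling, so sums, ranks and bins of level across genes rest on an unknown scaling, and no counting error can be given. From the deposited m6A peak list, which has no score, only the gene and location class were used. Its build could not be matched to hg38, so no coordinate was taken from it.

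The values were compared as log2(value + 1), which understates differences of low genes; no count test applies and none was run. The procedure was run on simulated data and recovered all genes set 4-fold apart. Only genes of higher value were set apart there, with less spread than between these libraries and calls at 2-fold. The simulation therefore does not show how differences of 1.5-fold, or of low genes, would be recovered. The members and the 45 gene lists were chosen with earlier results of these data known. Genes named are METTL3 and its complex, the 15 largest differences a side at a mean of at least 5, and in each list up to 4 members with the largest differences at a value of at least 5 plus the highest member; other members, the promoter motifs and the genes whose windows are printed were chosen after their values were seen. Of the symbols, 17412 were current, 464 older, 348 unmatched, and 25 had been turned into dates and were left unnamed. Promoter windows come from RefSeq (GRCh38.p14). A motif of 7 letters for metal response, TGCNCNC, stood in 70.7% of windows of genes that passed and is not used further. Computation used pandas 2.3.3 and numpy 2.4.6 under Python 3.11.15, and plots matplotlib 3.10.9. Alternatives were the pseudocount, the filter and the scaling. Some single genes of the lists are not reported here.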

Additional observations from a re-analysis of the deposited data

How the results depend on the processing

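The counts of genes past a fold depended on the treatment of low values. With a pseudocount of 0.1 in place of 1, 93 genes were at least 2-fold higher and 114 lower, and 382 were at least 1.5-fold higher and 578 lower. With a value of at least 5 asked in either library, 19 genes were 2-fold higher and 131 were 1.5-fold higher; fewer genes are then compared. Scaling both columns to the same sum or by the median ratio left all these counts within 1.5 times. The METTL3 difference ran from -1.31 to -1.21 over the alternatives. Of 41 lists with at least 5 members, 32 kept their median within 0.1 under every alternative that left at least 5 members; with the filter of 5 the metallothioneins and the sterol export genes gave no value. The NF-kB and cytokine list changed sign without a filter, to 0.0026, and was at -0.26 with the filter of 5; TGF-beta and BMP targets moved from -0.02 to 0.19 with the filter of 5, the YAP and TEAD targets to 0.30, p53 targets to -0.17 and the m6A writer complex to -0.04. Without a filter the metallothionein median was 0.02, that of the amino acid transporters 0.13, of Wnt targets -0.03 and of serpins and kallikreins -0.06, since genes near 0 enter. The share of 1.5-fold higher genes with the ATF4 element, an alternative added after the data were seen, ran from 7.78% to 12.6%. No paired analysis was possible because each group has 1 library and the labels give the groups no shared replicate numbers.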

Other observations

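Some genes, chosen for their hairpin 2 values, are given in the control, hairpin 1 and hairpin 2 libraries, in that order. CDX2, an intestinal transcription factor, stood at 0.07, 0 and 6.01, and SYP, a synaptic vesicle protein, at 0.63, 1.17 and 6.34. SCGB1A1, a secretoglobin of airway club cells, was among the genes 2-fold lower with hairpin 1, at 3.96 and 1.12, and stood at 37.11 with hairpin 2. GSTA4, a glutathione transferase, stood at 9.94, 4.43 and 21.08.

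Further genes past 2-fold, at low and high levels, are given as values. CXCL14, a chemokine of epithelium, had 0.99 in the control and 7.73 with hairpin 1, and 0.19 with hairpin 2. SULT1E1, the oestrogen sulfotransferase, had 1.08 and 5.61, and 0.4 with hairpin 2. EEF1A2, a translation elongation factor, had 212.95 and 93.43, and 255.74 with hairpin 2.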
